A study of Mus musculus with 4 samples.

Results

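The basement membrane, integrin and matrix protease genes described here were 38 genes listed by name: 10 laminin chains, 7 collagen genes, 6 linker glycoproteins or proteoglycans, 7 cell surface receptors and 8 proteases or protease inhibitors. Of these, 35 were matched to a RefSeq transcript of the array, among 17277 named genes in all, and Lama3, Lama5 and Hspg2 were not matched and are not analysed here. The RNA was that of testes taken from male mice at P9, postnatal day 9, and was hybridised to one-colour NimbleGen 60-mer expression arrays, 1 control array and 3 Dmrt1 knockout arrays. The control mice lacked Cre (Cre-negative), the knockouts carried it (Cre-positive), and DHH-cre is written in the sample titles of both groups. Desert hedgehog, whose Cre driver deleted Dmrt1, is expressed in the testis by Sertoli cells. Dmrt1, a DM domain transcription factor, is also expressed by germ cells. The labels do not give the Dmrt1 alleles of the control or say whether each array holds a separate animal or a pool, so the p-values rest on a spread between arrays that could be technical.

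The basement membrane of the seminiferous tubule is laid down jointly by Sertoli cells and the peritubular myoid cells around them. Laminin trimers and collagen IV form its networks, and nidogens and proteoglycans tie these together. Integrins and dystroglycan anchor Sertoli cells and spermatogonia to it. Metalloproteases, plasminogen activators and their inhibitors remodel it, and in the rat testis this remodelling has been studied in connection with the blood-testis barrier and the movement of germ cells through it.

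The arrays had similar distributions, with median intensities of 1005 to 1011. Levels below are log2 intensities, on which a difference of 1 is a 2-fold change. They are not compared between genes, since each gene was read by its own probes. Dmrt1 was at 14.16 in the control and at 13.23, 13.38 and 13.66 in the knockouts, a difference of -0.73 ± 0.27 (SE, 1 control and 3 knockout arrays) that missed the threshold (limma, adjusted p = 0.586). The position of its probes relative to the deleted part is not known here, so this is not a check of the labels. Testis genes were bright on all arrays, with Sox9 of Sertoli cells at 12.29 to 13.11 and Ddx4 of germ cells at 14.39 to 14.68. The summed intensity of 16 Sertoli markers was 237140 in the control and 174796 to 177032 in the knockouts, with Cst9, Gata1 and Cldn11 called lower and Krt18 called higher. Such a sum is weighted towards bright probes and does not describe the list as a whole. Clu was at 41020 in the control and 25758 to 27334 in the knockouts, and Cldn11 at 32655 and 8303 to 11079. Gata1 was at 32633 and 10426 to 11694, and Cst9 at 23211 and 1906 to 4409. The markers did not move one way: 7 of the 16 had a difference above 0. All 3 knockout arrays lay above the control for 6 (37.5%, against 26.6% of all named genes) and below it for 7 (43.8%, against 23.9%). Of all named genes, 0.718% were called in either direction. The marker list was chosen with earlier results of these data known, and its shares were not tested. The sum for 12 germ cell markers was 173998 in the control and 169027 to 193333 in the knockouts. In RNA from the whole organ, a change in the number of cells of a type and a change in RNA per cell cannot be told apart.

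The genes of the 6 collagen IV chains lie in the mouse genome as head-to-head pairs, each pair transcribed in opposite directions from a shared region. Their promoters are shown because the chains are described by pair below. The RefSeq windows of 300 bases, most of each lying before the gene start, are written 5′ to 3′ on the gene's own strand in GRCm38.p6. They lie at chr8:11312777-11313076 (minus strand) for Col4a1, chr8:11312555-11312854 (plus) for Col4a2, chr1:82586800-82587099 (minus) for Col4a4, chrX:141474027-141474326 (minus) for Col4a6 and chrX:141475169-141475468 (plus) for Col4a5. Capitals mark the GC box (GGGCGG, bound by Sp1-type factors) and the CCAAT box (CCAAT) on either strand.
Col4a1: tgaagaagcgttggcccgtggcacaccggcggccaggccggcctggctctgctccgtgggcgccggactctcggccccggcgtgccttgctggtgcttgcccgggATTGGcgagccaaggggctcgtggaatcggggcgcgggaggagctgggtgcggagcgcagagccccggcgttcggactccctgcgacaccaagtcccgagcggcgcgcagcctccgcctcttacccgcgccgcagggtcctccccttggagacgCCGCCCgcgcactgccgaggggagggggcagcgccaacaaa
Col4a2: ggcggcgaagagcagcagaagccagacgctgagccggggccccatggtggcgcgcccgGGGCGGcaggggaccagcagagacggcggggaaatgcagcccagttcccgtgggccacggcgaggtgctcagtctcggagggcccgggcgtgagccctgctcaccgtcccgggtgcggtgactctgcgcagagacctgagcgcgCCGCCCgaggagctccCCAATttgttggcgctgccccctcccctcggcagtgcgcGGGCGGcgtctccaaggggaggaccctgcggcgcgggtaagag
Col4a4: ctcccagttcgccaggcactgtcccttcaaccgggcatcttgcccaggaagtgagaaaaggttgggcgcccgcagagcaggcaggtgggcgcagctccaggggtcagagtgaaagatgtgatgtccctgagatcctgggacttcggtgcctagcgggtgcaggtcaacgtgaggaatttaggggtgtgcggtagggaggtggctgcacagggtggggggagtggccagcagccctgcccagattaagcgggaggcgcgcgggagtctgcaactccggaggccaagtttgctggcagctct
Col4a6: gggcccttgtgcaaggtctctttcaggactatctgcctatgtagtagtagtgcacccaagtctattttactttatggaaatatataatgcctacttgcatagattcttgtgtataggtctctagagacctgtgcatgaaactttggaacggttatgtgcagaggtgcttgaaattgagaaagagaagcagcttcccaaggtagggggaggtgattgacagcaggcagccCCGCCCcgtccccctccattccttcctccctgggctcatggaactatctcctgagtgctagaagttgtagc
Col4a5: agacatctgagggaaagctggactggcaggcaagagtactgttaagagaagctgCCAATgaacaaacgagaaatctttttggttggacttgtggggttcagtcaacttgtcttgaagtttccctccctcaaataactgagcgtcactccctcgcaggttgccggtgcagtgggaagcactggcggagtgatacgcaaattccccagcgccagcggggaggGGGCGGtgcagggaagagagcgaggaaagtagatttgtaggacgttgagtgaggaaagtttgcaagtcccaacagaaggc
The Col4a1 and Col4a2 windows overlapped by 78 bases, and the GC box in the overlap is seen in both. The Col4a2 window held 3 GC boxes and 1 CCAAT box, the Col4a1 window 1 of each, and the Col4a4 window neither. The Col4a6 and Col4a5 windows lay 842 bases apart with 1 GC box each, and a CCAAT box was found in the Col4a5 window. Col4a3 had no window in the table used.

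Promoter windows were matched for 24 of the 38 genes, 22 of them measured, in 29 windows. The GC box was in 22 of these 29 windows (75.9%), against 35.7% of all 32851 windows. The CCAAT box was in 12 (41.4%), against 37.4%. The letters ACATTGT, the centre of the sequence that DMRT1 binds, were searched on both strands and found in 0 of the 29 windows, against 2.96% of all. This says only that these letters are not in these short windows.

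No member passed the test between knockout and control. limma called 0 of 35 members higher and 0 lower, against 0.718% of all named genes called in either direction (0.197% higher and 0.521% lower). The largest member difference was 0.71, for Agrn, and the smallest difference among all called transcripts was 1.35. At an unadjusted p under 0.05 there were 2 members, Agrn and Lama4, both higher, or 5.71% against a background of 6.63% (3.32% in each direction). All 3 knockout arrays lay above the control for 9 members (25.7%, background 26.6%) and below it for 8 (22.9%, background 23.9%). The median member difference was 0.012, against 0.010 over all named genes, and the median size without regard to sign was 0.20 against 0.19. These shares lay near those of all genes.

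An absence of calls leaves room for change, and the 95% intervals of limma's fit give its size. For 26 of the 35 members (74.3%) the interval lay within 1 log2 unit of the control either way, against 75.7% of all named genes. The other 9 were Lama4, Lamb1, Col4a3, Col4a4, Agrn, Itga1, Itga2, Itga3 and Plau. The spread behind these intervals came from the knockout arrays alone and was taken to hold for the control as well. Any peculiarity of that 1 array therefore counts as a difference of the group.

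**Figure D1:**
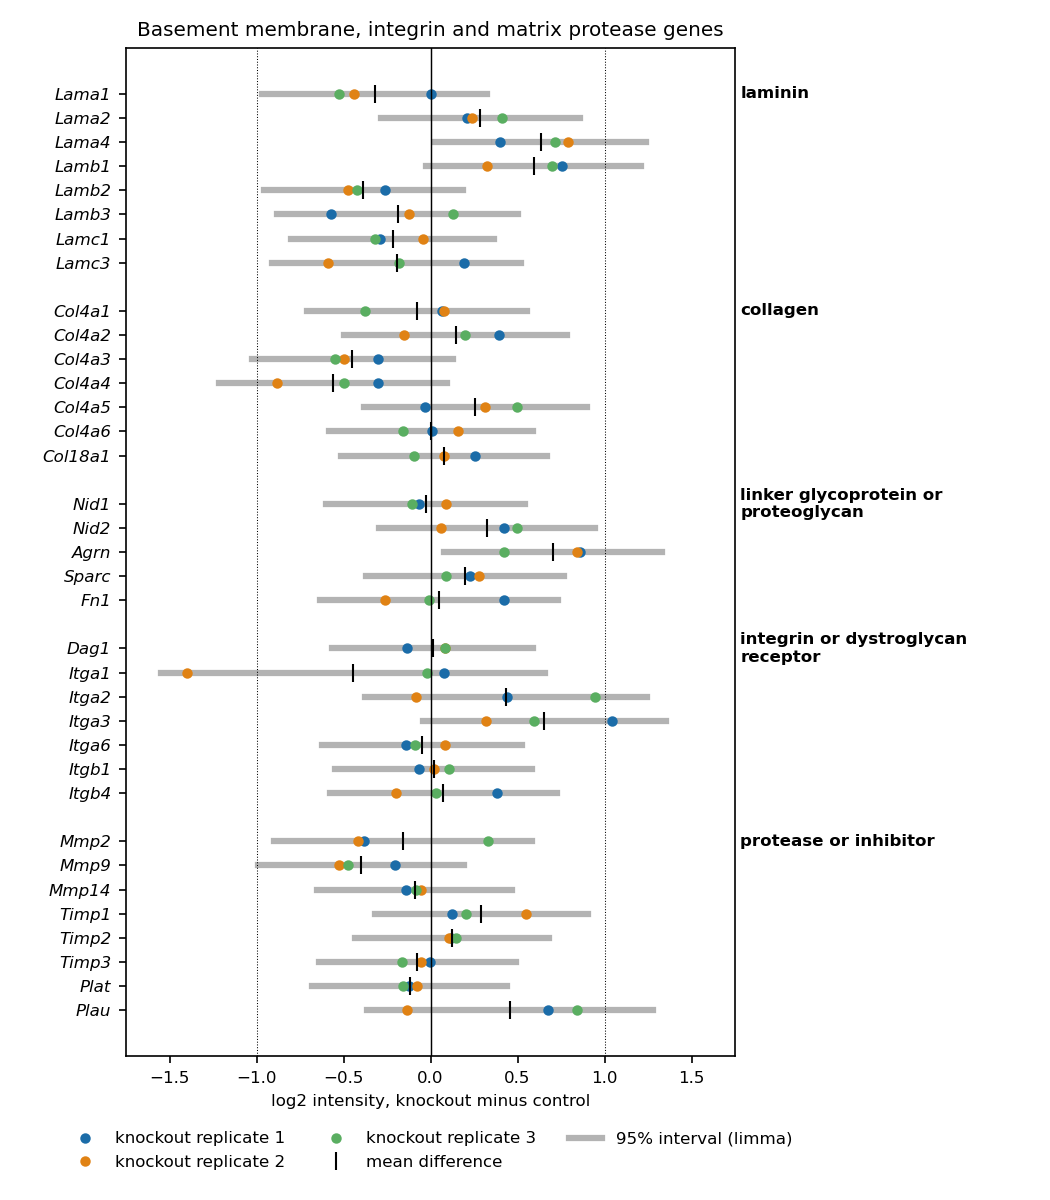
Difference from the control in log2 intensity (horizontal axis) for the 35 measured members by class. Dots are the 3 knockout arrays, ticks their mean and grey bars the 95% interval of limma's fit, and dotted lines mark a 2-fold change. Every bar reaches 0 or crosses it except those of Lama4 and Agrn, and the dot of knockout replicate 2 stands far to the left for Itga1.

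Among the laminins, the cross-shaped trimers of an alpha, a beta and a gamma chain, 0 of 8 measured chains passed. The median difference was -0.19, or -0.089 without knockout replicate 1. Taken array by array, the median over the 8 chains was 0.095, -0.082 and -0.028 on knockout replicates 1, 2 and 3, so the arrays did not share a direction. Lama4, the alpha chain of vessel and mesenchymal laminins, was at 13.07 in the control and at 13.47, 13.86 and 13.78 in the knockouts. All 3 knockout arrays lay above the control, and the difference of 0.63 ± 0.27 (95% interval 0.028 to 1.24) did not pass (limma, adjusted p = 0.739). Over 12 endothelial markers the summed intensity was 35579 in the control and 38736 to 41682 in the knockouts. Of these, 0 were called and 7 of 12 had a difference above 0. All 3 knockout arrays lay above the control for 3 of them (25%, background 26.6%) and below it for 0 (background 23.9%). The part of endothelium in the Lama4 value was not tested.

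Lamb1, a beta chain of the embryonic and tubular laminins, was at 13.57 in the control and 14.32, 13.89 and 14.26 in the knockouts. All 3 knockout arrays lay above the 1 control array, the pattern of 26.6% of named genes, at a difference of 0.59 ± 0.28. Lama2, the alpha chain of muscle laminin, had the same pattern at 0.29 ± 0.26. Lamb2, the beta chain of mature basement membranes, was at 13.32 in the control and at 13.06, 12.85 and 12.89 in the knockouts, all below it. Its difference was -0.39 ± 0.26 (95% interval -0.96 to 0.19). Lamc1, the gamma chain of most trimers, was at 13.55 and at 13.26, 13.50 and 13.23, again all below, with a difference of -0.22 ± 0.26. None of these 4 chains passed.

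Lama1, the alpha chain of the earliest embryonic laminin, was at 13.55 in the control and at 13.55, 13.11 and 13.02 in the knockouts. Knockout replicate 1 matched the control while the other 2 lay below it, and the difference was -0.32 ± 0.29. Lamc3, a gamma chain reported in the rat testis at contacts of Sertoli cells with spermatids, was at 12.90 and at 13.09, 12.31 and 12.72, on both sides of the control. Its difference was -0.19 ± 0.32 and became 0.0039 without knockout replicate 2. Lamb3, a beta chain of epithelial anchoring laminin, was at 8.49 and at 7.92, 8.37 and 8.62, also on both sides, with a difference of -0.19 ± 0.31 that became 0.0030 without replicate 1.

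The collagen genes had 0 of 7 called and a median difference of 0.0036, which ran from -0.073 without knockout replicate 2 to 0.083 without replicate 3. Col4a3, a chain of the network shared by the kidney glomerulus and the seminiferous tubule, was at 14.16 in the control and at 13.85, 13.66 and 13.61 in the knockouts. Its pair Col4a4, a chain of the same network, was at 12.18 and at 11.88, 11.30 and 11.69. Both lay below the control on all 3 knockout arrays, the pattern of 23.9% of named genes. The differences were -0.45 ± 0.26 (95% interval -1.03 to 0.13) for Col4a3 and -0.56 ± 0.29 (95% interval -1.21 to 0.092) for Col4a4, and neither passed (limma, adjusted p = 0.912 and 0.867).

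Col4a1 and Col4a2, the chains of the collagen IV found in all basement membranes, straddled the control. Col4a1 was at 14.75 in the control and at 14.82, 14.83 and 14.38 in the knockouts, and its difference of -0.078 ± 0.28 became 0.071 without replicate 3. Col4a2 was at 13.82 and at 14.22, 13.67 and 14.02, with a difference of 0.15 ± 0.29 that was 0.0225 without replicate 1 and 0.29 without replicate 2. Relative to the control, Col4a1 was at 0.077 and Col4a2 at -0.15 on knockout replicate 2, and at -0.38 and 0.20 on replicate 3. These are single-array values, and the difference between the chains was not tested.

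Col4a5 and Col4a6 are the X-linked pair. Col4a5, the chain that joins Col4a3 and Col4a4 in 1 trimer, was at 11.27 in the control and at 11.24, 11.58 and 11.77 in the knockouts, a difference of 0.26 ± 0.29. Its sign was opposite to those of its partner chains, and the difference between chains was not tested. Col4a6 was at 11.20 and at 11.21, 11.36 and 11.05, a difference of 0.0036 ± 0.26. Col18a1, a proteoglycan collagen whose end fragment is endostatin, was at 13.62 and at 13.88, 13.70 and 13.53, with a difference of 0.078 ± 0.27. For all 3 genes the control lay inside the range of the knockouts.

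**Figure D2:**
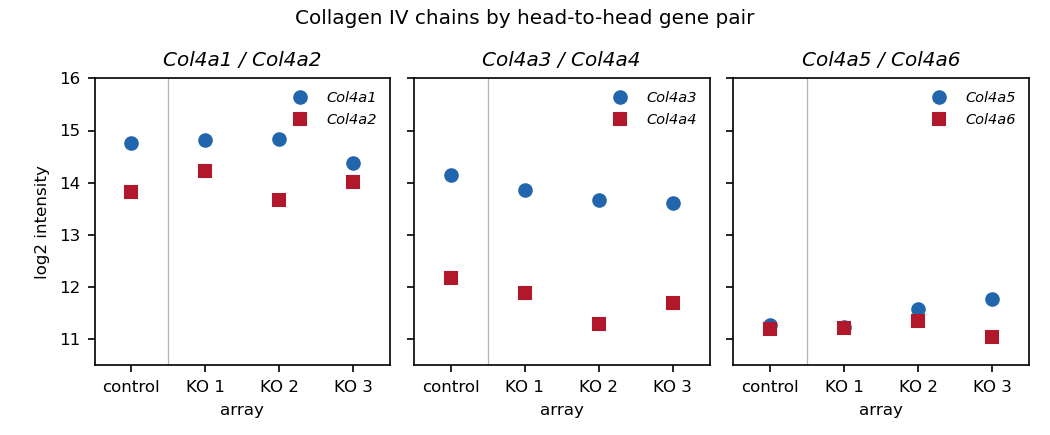
log2 intensity (vertical axis) of the 6 collagen IV genes on the control and the 3 knockout (KO) arrays, by head-to-head pair. Col4a3 and Col4a4 lie below the control on every knockout array, while each gene of the other pairs has knockout arrays on both sides; levels of different genes come from different probes and are not compared.

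Of the linker glycoproteins and proteoglycans, 0 of 5 measured genes passed and the median difference was 0.20. Agrn, a heparan sulfate proteoglycan that binds laminin and dystroglycan, had the largest difference of all members. It was at 11.49 in the control and at 12.35, 12.33 and 11.91 in the knockouts, all above the control. The difference was 0.71 ± 0.28, or 1.63-fold (95% interval 1.06 to 2.52), and did not pass (limma, adjusted p = 0.666). Over its alternatives the adjusted p ran from 0.314 to 0.986.

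The nidogens bridge laminin and collagen IV. Nid1 was at 14.52 in the control and at 14.45, 14.60 and 14.41 in the knockouts, a difference of -0.029 ± 0.26, and Nid2 differed by 0.33 ± 0.28 with all 3 knockout arrays above the control. Sparc, a collagen-binding protein of remodelled matrix, was at 15.55 and at 15.77, 15.82 and 15.63. It too lay above on all 3 knockout arrays, by 0.20 ± 0.26. Fn1, the fibronectin that peritubular cells secrete, was at 12.78 and at 13.21, 12.52 and 12.78, on both sides, and its difference of 0.051 ± 0.31 became -0.13 without replicate 1.

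Receptors had 0 of 7 called and a median difference of 0.019, which turned to -0.0235 without knockout replicate 3. Itgb1, the beta chain shared by most laminin and collagen integrins, was at 14.18 in the control and at 14.11, 14.20 and 14.28 in the knockouts. Its difference was 0.019 ± 0.25 (95% interval -0.55 to 0.59). Itga6, the laminin receptor chain used to enrich spermatogonial stem cells, was at 12.87 and at 12.73, 12.96 and 12.78, a difference of -0.048 ± 0.26 (95% interval -0.62 to 0.53). Dag1, the dystroglycan gene, was at 13.54 and at 13.41, 13.63 and 13.63, a difference of 0.012 ± 0.26 (95% interval -0.56 to 0.59). For these 3 receptors the control lay inside the range of the knockouts. Each interval excluded a 2-fold change either way in the RNA of the whole testis. A change within 1 cell type was not tested.

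The other integrin chains varied more. Itga3, a laminin receptor chain, was at 9.51 in the control and at 10.55, 9.83 and 10.10 in the knockouts, all above it, with a difference of 0.65 ± 0.31 (95% interval -0.046 to 1.35) that did not pass. Itga2, a collagen receptor chain, was at 7.96 and at 8.40, 7.88 and 8.91, on both sides. Itga1, the other collagen receptor chain of the list, was at 10.31 in the control and at 10.39 and 10.29 on knockout replicates 1 and 3, but at 8.92 on replicate 2. Its difference was -0.45 ± 0.49 with all arrays and 0.029 without replicate 2, so its value rests on that array. Itgb4, the hemidesmosome chain and partner of Itga6, was measured by 2 transcripts, with a difference of 0.074 ± 0.29 for the brighter and -0.27 ± 0.31 for the dimmer.

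The proteases and their inhibitors had 0 of 8 called and a median difference of -0.083. The class held the 3 members with the least spread, but also Plau and Mmp2, which varied more than 95.9% and 91.1% of named genes. Timp2, an inhibitor that also takes part in activating Mmp2, was at 14.27 in the control and at 14.39, 14.38 and 14.42 in the knockouts, with an SD of 0.0185 over the 3. Its difference was 0.12 ± 0.25. Plat, the tissue plasminogen activator, was at 12.83 and at 12.70, 12.75 and 12.67, a difference of -0.12 ± 0.25 (95% interval -0.68 to 0.44). Mmp14, the membrane-bound metalloprotease that activates Mmp2, was at 12.13 and at 11.99, 12.08 and 12.05, a difference of -0.091 ± 0.25. In all 3 genes the knockouts fell on 1 side of the control by less than 0.2 log2 units.

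Mmp2, a gelatinase that cuts collagen IV, was at 13.79 in the control and at 13.41, 13.37 and 14.12 in the knockouts. Replicate 3 lay above the control and the other 2 below it, and the difference of -0.16 ± 0.33 ran from -0.40 without replicate 3 to -0.0247 without replicate 2. Mmp9, the other gelatinase, was at 8.67 and at 8.46, 8.14 and 8.20, all below, with a difference of -0.40 ± 0.27 (limma, adjusted p = 0.959). Timp1, a secreted metalloprotease inhibitor, was at 10.42 and at 10.54, 10.96 and 10.62, all above, by 0.29 ± 0.28. Timp3, the inhibitor that binds to the matrix, was at 13.86 and at 13.86, 13.80 and 13.69, a difference of -0.075 ± 0.25. Plau, the urokinase plasminogen activator, was dim at 6.92 and at 7.59, 6.78 and 7.76, on both sides of the control. The values carry no detection call, so whether so dim a level exceeds background is unknown.

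The spread of a member among the knockout arrays ranged from an SD of 0.0185 (Timp2) to 0.83 (Itga1). The median was 0.22, against 0.21 over all named genes. Itga1 varied more than 99.4% of named genes, Plau more than 95.9% and Itga2 more than 95.6%, while Timp2 varied more than 0.492%, Plat more than 2.78% and Mmp14 more than 3.39%. By class, the median SD was 0.29 for receptors, 0.26 for collagens, 0.23 for linkers, 0.22 for laminins and 0.13 for proteases and inhibitors.

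**Figure D3:**
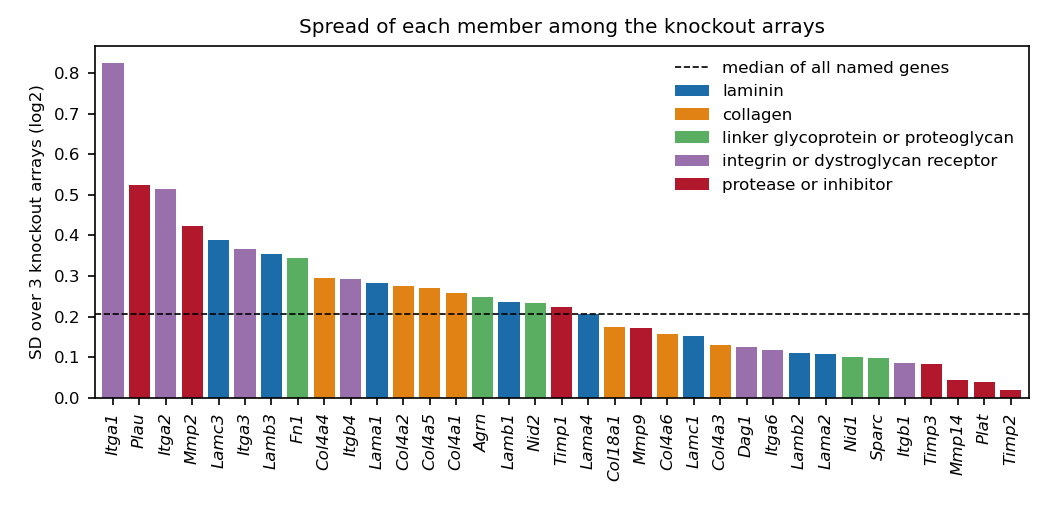
SD of log2 intensity over the 3 knockout arrays (vertical axis) for each measured member, coloured by class. Itga1 stands apart at 0.83, and Mmp14, Plat and Timp2 are the 3 lowest; the dashed line is the median of all named genes, 0.21.

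Of 125 other matrix and adhesion genes in 5 lists, 117 were measured, and limma called 2 of them, Fbln2 and Mmp23, both higher (background 0.197% of named genes higher). Fbln2, a fibulin that binds laminin, nidogen and fibronectin, was at 12.26 in the control and at 13.60, 13.87 and 14.08 in the knockouts. All 3 knockout arrays lay above the control, and the gene rose by 1.59 ± 0.28 log2 units, with an interval of 1.95- to 4.63-fold (limma, adjusted p = 0.0372). Leaving out knockout replicate 3 ended the call (adjusted p = 0.0533), as did log2(intensity + 50) (adjusted p = 0.0797), and its alternatives spanned 0.00366 to 0.0797. Mmp23, a membrane-anchored metalloprotease, was at 10.70 and at 12.94, 12.79 and 12.19. It rose 3.85-fold, by 1.94 ± 0.32 (limma, adjusted p = 0.0266), and did not pass on log2(intensity + 50) (adjusted p = 0.0887, range 0.00426 to 0.0887).

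In the same arrays the summed intensity of 10 peritubular myoid markers was 72890 in the control and 59104 to 65342 in the knockouts, with 0 called and 1 of 10 above 0. Bright probes weigh most in such a sum, and Mylk alone was at 23950 in the control and 16143 to 20943 in the knockouts. For 6 of the 10 myoid markers the knockout arrays lay on both sides of the control. For 7 fibroblast and interstitial markers it was 68595 and 72828 to 76111 (0 called, 4 of 7 above 0). For 11 macrophage markers it was 18392 and 22268 to 26945 (0 called, 10 of 11 above 0), and for 9 Leydig markers 95041 and 89583 to 137482 (0 called, 6 of 9 above 0). The 3 knockout arrays all lay above the control for 10% of myoid, 42.9% of fibroblast, 72.7% of macrophage and 44.4% of Leydig markers. They all lay below it for 30%, 28.6%, 9.09% and 0%, in the same order. Over all named genes these shares were 26.6% and 23.9%. The lists are small, and their shares were not tested. The lowest marker intensity in these lists was 56, on arrays whose lowest values were 23.9 to 25.2, and the values carry no detection call. The part of these cells in the values of Fbln2 and Mmp23 was not tested.

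Other basement membrane genes had 0 of 22 called and a median difference of -0.037, with 6 at an unadjusted p under 0.05 (27.3%, background 6.63%). The list was chosen with earlier results of these data known and all genes share the 1 control array, so this share was not tested against the background. Smoc1, a calcium-binding basement membrane protein, was at 12.23 in the control and at 13.03, 13.09 and 12.94 in the knockouts, on average 0.79 ± 0.25 higher, which did not pass (limma, adjusted p = 0.428). Frem1, of the Fraser complex that joins epithelium to mesenchyme, was at 9.15 and at 8.33, 8.04 and 8.55, a difference of -0.85 ± 0.28 (limma, adjusted p = 0.464). Of the 6, Smoc1, Col15a1, Col7a1 and Fras1 were higher and Frem1 and Ntn4 lower. Col15a1, Col7a1, Fras1 and Ntn4 lie outside the naming rule and were chosen after their values were seen.

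Other integrins had 0 of 17 called and a median of 0.14. Itgb5, a vitronectin receptor chain, was at 11.78 in the control and at 12.65, 12.45 and 12.47 in the knockouts. It differed by 0.74 ± 0.26 and did not pass (limma, adjusted p = 0.505). Itgb7, a leukocyte chain, was at 10.29 and at 9.73, 9.83 and 9.59, a difference of -0.57 ± 0.26. At an unadjusted p under 0.05 there was 1 integrin of this list, Itgb5 (5.88%, background 6.63%).

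Focal adhesion and dystroglycan-associated genes had 0 of 23 called and a median of 0.058, with 2 at an unadjusted p under 0.05 (8.7%, background 6.63%). Vcl, the actin-binding vinculin, was at 12.59 in the control and at 11.86, 12.08 and 11.54 in the knockouts. Its difference was -0.77 ± 0.29 (limma, adjusted p = 0.586). Sntb1, a syntrophin of the dystrophin complex, was at 10.59 and at 11.45, 11.13 and 11.16, a difference of 0.65 ± 0.27 (limma, adjusted p = 0.685). Vcl was lower than in the control on every knockout array, as were 23.9% of named genes. Sntb1 was higher on every one, as were 26.6%. These 2 genes were picked for the smallest p of the list, which favours such a pattern, and neither passed.

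The interstitial matrix list had 1 of 27 called, Fbln2, and a median of 0.081, with 2 at an unadjusted p under 0.05, both higher (7.41%). The list of other proteases and inhibitors had 1 of 28 called, Mmp23, and a median of 0.028, with 3 higher and 1 lower at an unadjusted p under 0.05 (14.3%). Over all named genes that share was 6.63%, with 3.32% in each direction. Both lists were chosen with earlier results of these data known, and their shares were not tested against it.

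**Figure D4:**
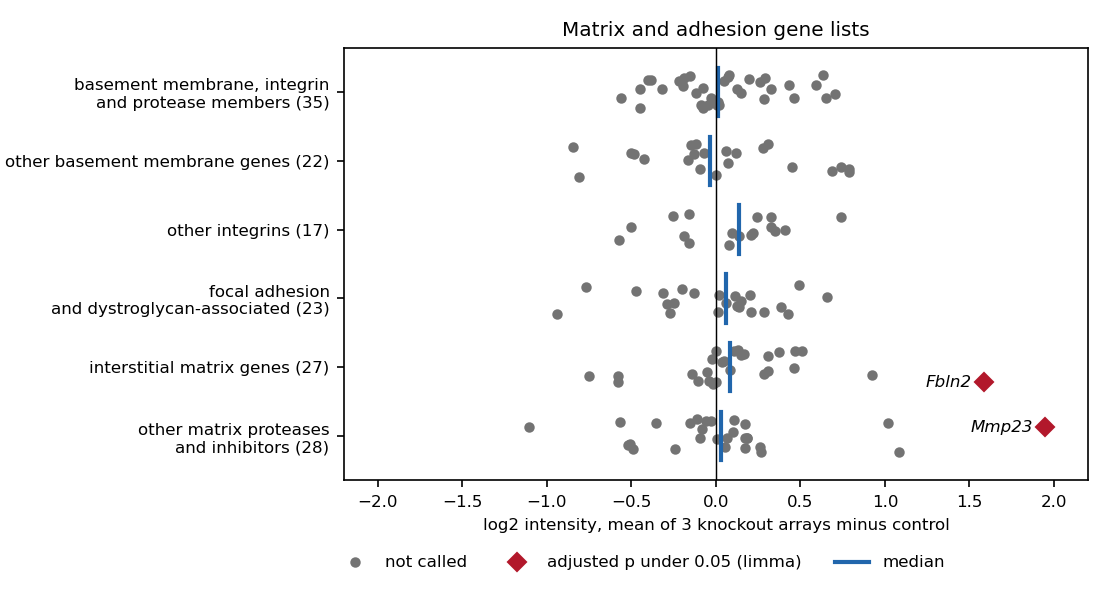
Difference between the mean of the 3 knockout arrays and the control in log2 intensity (horizontal axis) for the 35 measured members and 5 other lists, 1 point per gene, with the number measured in brackets. Blue bars are list medians, and red diamonds mark Fbln2 at 1.59 and Mmp23 at 1.94, the 2 genes called by limma; vertical scatter within a list carries no value.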

How the data were processed

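The authors deposited linear intensities, with 1 value for each RefSeq transcript on each array. Per the submitters' processing notes, RMA made them. RMA corrects background, equalises the arrays by quantiles and sums up the probes of a transcript, which can hide a shift shared by most genes. Its version, detection calls and background values are not given in the sources used here.

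log2 was taken with no pseudocount. Transcript accessions without version were matched to a RefSeq table of GRCm38.p6, which named 17780 of 25631 transcripts (69.4%). The array was designed on an older build, so the table's gene coordinates are not printed; promoter windows carry their own. For a gene with several transcripts, the one with the highest mean stood for it. Each transcript was tested with limma 3.58.1 (R 4.3.3, lmFit and eBayes, two-sided, knockout minus control), Benjamini-Hochberg adjusted over all 25631 transcripts, of which 168 (0.655%) passed at an adjusted p under 0.05. Standard errors and 95% intervals are those of the moderated fit. The number of arrays limits the precision.

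The members and lists were chosen with earlier results of these data known. Values on every array were required by rule for Agrn and Lama4 (unadjusted p under 0.05 with all knockout arrays on 1 side), 12 members given whatever their result, of which Lama5 was not matched, and in each other list the called genes or the 2 with the smallest p. Most other members are given on every array too, outside the rule. The fit was repeated without each knockout array, after another quantile normalisation or median centring, without the dimmest 25% of transcripts, on log2(intensity + 50), with transcripts of 1 gene averaged, with a trended or robust prior, and at a threshold of 0.1. Figures were drawn with matplotlib 3.10.9. The result of 1 alternative for the focal adhesion list is not reported here.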

Additional observations from a re-analysis of the deposited data

How the results depend on the processing

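No member was called under any alternative, and the lowest adjusted p of a member was 0.314 (limma). Of the 35 members, 24 kept the sign of their difference under every alternative run, Plau lacking 1 of these, since it was among the dimmest 25% of transcripts. The other 11 turned sign under at least 1 alternative, and none of them was called under any. Without 1 knockout array, the differences ran from -0.35 to 0.0030 for Lamb3, from -0.39 to 0.0039 for Lamc3, from -0.16 to 0.071 for Col4a1, from -0.073 to 0.083 for Col4a6, from -0.0090 to 0.17 for Col18a1, from -0.086 to 0.0095 for Nid1, from -0.13 to 0.21 for Fn1, from -0.0244 to 0.085 for Dag1, from -0.71 to 0.029 for Itga1, from -0.0235 to 0.063 for Itgb1 and from -0.082 to 0.21 for Itgb4, which was at -0.098 as the mean of its transcripts. The medians ran from -0.18 to -0.089 for laminins, from -0.073 to 0.083 for collagens, from 0.18 to 0.24 for linkers, from -0.063 to -0.055 for proteases and inhibitors, from -0.0235 to 0.063 for receptors and from -0.0035 to 0.071 for all members. The count of called interstitial matrix genes ran from 0 to 1, since Fbln2 was lost without replicate 3. On log2(intensity + 50), 0 interstitial and 0 protease genes were called; the cause was not tested. With a variance trend 1 protease or inhibitor gene was called lower, Serpina5 at -1.10 (limma, adjusted p = 0.0386). Serpina5 lies outside the naming rule and was chosen after its values were seen. Every alternative kept the 1 control array. No paired analysis was possible because a single control array cannot be matched to 3 knockouts.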
